A study of Mus musculus with 19 samples.

Results

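The genes described here are the mouse zinc finger genes numbered Zfp900 to Zfp999, taken as every row of the deposited count tables whose symbol is Zfp followed by a number in that range. They make up 64 of the 54352 symbols in each table. They were followed in polyadenylated RNA from 19 libraries in 7 groups. In 2D culture, 2 libraries came from TT2 mouse embryonic stem cells given 20 nM pladienolide B (PlaB) for 6 h, and 2 control libraries came from untreated TT2 cells, all 54 h after seeding. In 3D microwells, 3 libraries came from each of days 1, 2, 3, 4 and 5 of blastoid culture. The labels list the blastoid libraries too as treated with 20 nM PlaB for 6 h, so no untreated blastoid is among them. TT2 is a single stem cell line kept on growth-arrested mouse embryonic fibroblasts (feeder cells), PlaB is a small-molecule splicing inhibitor whose target is SF3B, a spliceosome component, and blastoids are aggregates grown from stem cells to resemble a blastocyst. The labels do not state whether replicates were grown as separate cultures, and the spread behind each p-value may therefore be a technical one.

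Most proteins with a Zfp symbol carry Cys2-His2 zinc fingers, small folds that hold a zinc ion and read DNA bases in tandem. Many in this number range also carry a KRAB box, which binds the corepressor TRIM28. TRIM28 brings the histone methyltransferase SETDB1, HP1 proteins and histone deacetylases, and in mouse embryonic stem cells and early embryos this machinery is known for silencing transposable elements. Many such genes lie in tandem arrays that arose by duplication, so neighbours are often close copies of each other.

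Of the 64 genes, 63 were protein coding in GENCODE M21 and Zfp939 was a transcribed pseudogene. A Cys2-His2 finger pattern was found in 60 of the translated coding sequences, with 2 to 21 matches and a median of 11, and a KRAB-box pattern in 59 of 63. The genes fell into 5 position groups, defined as at least 3 members with gaps of at most 1000000 bases (GRCm38), and 21 genes elsewhere. The largest group held 16 genes on chromosome 4 between 145510759 and 147848366, among them Zfp979, Zfp980, Zfp984 and Zfp990. Groups of 10 genes each lay on chromosome 17 (21567008 to 22867134) and chromosome 2 (175372436 to 178078476), 4 genes on chromosome 7 (42579783 to 43192109) and 3 on chromosome 8 (69209038 to 69749970). Their transcripts were GC-poor: the longest transcript held a median of 38.6% G and C over the members, against 47.7% over the genes tested in 2D and 48.5% over those tested in blastoids.

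The promoters show how alike and unlike the members' regulatory sequence can be. RefSeq promoters (GRCm38.p6, 250 bases before to 50 after the start) matched 54 of the 64 genes, and 4 are shown 5′ to 3′ because the results turn on these genes: 3 from the chromosome 4 group, and that of Zfp948, which moved against most other members in 2D. Zfp979 lies at chr4:147642459-147642758 on the minus strand, Zfp984 at chr4:147809739-147810038 on the minus strand, Zfp980 at chr4:145670447-145670746 on the plus strand, and Zfp948 at chr17:21566728-21567027 on the plus strand. Capitals mark matches on either strand to the TATA box (TATAAA), the CCAAT box (CCAAT), the GC box (GGGCGG) or the E-box (CACGTG).
Zfp979: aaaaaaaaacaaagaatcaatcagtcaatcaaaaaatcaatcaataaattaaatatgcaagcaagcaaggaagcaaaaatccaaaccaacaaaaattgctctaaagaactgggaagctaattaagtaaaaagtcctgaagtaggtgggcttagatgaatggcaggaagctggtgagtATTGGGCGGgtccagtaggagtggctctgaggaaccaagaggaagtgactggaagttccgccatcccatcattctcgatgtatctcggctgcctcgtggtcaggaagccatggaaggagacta
Zfp984: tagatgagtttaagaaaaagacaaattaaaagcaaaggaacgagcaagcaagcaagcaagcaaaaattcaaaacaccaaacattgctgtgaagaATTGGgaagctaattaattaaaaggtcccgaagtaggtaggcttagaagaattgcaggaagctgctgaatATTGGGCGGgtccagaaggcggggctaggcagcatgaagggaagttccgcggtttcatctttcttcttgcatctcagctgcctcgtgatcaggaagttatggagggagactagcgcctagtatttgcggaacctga
Zfp980: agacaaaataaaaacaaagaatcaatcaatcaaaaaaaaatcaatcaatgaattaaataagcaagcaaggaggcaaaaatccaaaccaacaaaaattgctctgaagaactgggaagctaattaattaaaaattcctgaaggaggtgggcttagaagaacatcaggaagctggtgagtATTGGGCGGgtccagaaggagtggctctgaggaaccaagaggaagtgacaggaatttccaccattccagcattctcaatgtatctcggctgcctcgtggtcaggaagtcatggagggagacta
Zfp948: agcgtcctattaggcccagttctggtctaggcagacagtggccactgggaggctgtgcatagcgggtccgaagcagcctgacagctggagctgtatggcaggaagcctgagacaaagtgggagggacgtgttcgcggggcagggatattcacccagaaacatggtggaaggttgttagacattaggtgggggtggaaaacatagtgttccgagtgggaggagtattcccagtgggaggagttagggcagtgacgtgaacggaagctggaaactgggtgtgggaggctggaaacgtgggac

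The Zfp979 and Zfp980 promoters were 89.8% identical in a global alignment, and identity with the Zfp984 promoter was 68.9% for Zfp979 and 68.6% for Zfp980. Zfp948 was 45.9% to 49.3% identical with the 10 chromosome 4 promoters in the table. The 45 pairs among those 10 promoters ranged from 44.4% to 89.8%, with a median of 51.6%. The Zfp979 and Zfp980 pair is thus the most alike, and some pairs within the group are no more alike than Zfp948 is to it. Each of the 3 chromosome 4 promoters held the run ATTGGGCGG, a CCAAT box overlapping a GC box, which Zfp948 lacked, its promoter holding no match to any of the 4 motifs. This run, searched for after it was seen in these sequences, was present on either strand in 8 of the 54 member promoters (14.8%), 6 of them among the 10 chromosome 4 promoters, and in 0.256% of the 32851 promoters in the table. The CCAAT box was present in 41 of the 54 (75.9%) against 37.4% of all promoters, the GC box in 35.2% against 35.7%, the E-box in 13.0% against 7.15%, and the TATA box in 0 of the 54 against 13.6%. These are letter matches, not measured binding.

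Close copies also share transcript sequence, which limits what a count can be assigned to. A median of 79.5% of the 50-base windows of a member's longest transcript occurred in no transcript of another gene. The share was at least 90% for 23 members, under 50% for 18 and 0% for 5 (Zfp935, Zfp965, Zfp967, Zfp968 and Zfp969). In the chromosome 4 group the median share was 35.0%, so its 16 genes may not be wholly separate measurements. The coding window below, from the coding sequence of Zfp979 (GRCm38, chr4:147613119-147613168, minus strand), is the one held by most members among windows with a whole finger linker. It lies in 11 members, all in the chromosome 4 group (Zfp979, Zfp981, Zfp982, Zfp985, Zfp986, Zfp987, Zfp988, Zfp989, Zfp990, Zfp991 and Zfp992), and 14 genes in all, and its capitals mark the 15 bases that encode the conserved linker between neighbouring fingers. That linker was found in the translation of 61 of the 63 coding sequences (96.8%).
Zfp979 window: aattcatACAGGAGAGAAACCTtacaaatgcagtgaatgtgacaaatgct

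Of the named members, 73.0% of windows were the gene's own in Zfp990, 75.4% in Zfp979, 42.6% in Zfp984, 27.4% in Zfp980 and 99.9% in Zfp948. Windows of Zfp980 were shared most with Rex2, a neighbouring gene of the same family. Exons of 12 members overlap those of another gene, among them Zfp984 with Gm20707, Zfp961 with Cyp4f18, Zfp943 with Gm9772, Zfp934 with Zfp935, Zfp953 with Gm28041 and Gm28044, and Zfp956 with Zfp783. Counts of those genes are uncertain, since the strand setting is not given in the sources used here.

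Of the 64 genes, 62 had at least 1 count, 2 (Zfp935 and Zfp969) had none in any library, and 8, these included, had 15 counts or fewer over all 19 libraries. Levels are given as CPM, counts scaled to a library of 1000000 after TMM scaling. Divided by the kilobases of the longest transcript (CPM per kb), the members with the highest level over the 7 group means were Zfp978 (273), Zfp979 (266), Zfp990 (91.3), Zfp988 (80.4) and Zfp958 (65.3). All but Zfp958, a gene on chromosome 8, belong to the chromosome 4 group. The order of the top pair was not fixed. Zfp978 stood at 289 ± 46.9 CPM per kb in PlaB cells and 490.3 ± 122 in control cells, and Zfp979 at 90.3 ± 2.55 in PlaB cells and 435 ± 84.8 in control cells (SD, n = 2 each), so Zfp979 lay below Zfp978 with PlaB, while in control cells the means lay closer than their SDs. From day 1 to day 5 of blastoid culture, Zfp979 averaged 200.2 ± 81.9, 316 ± 39.3, 472 ± 45.8, 187 ± 24.7 and 163 ± 31.3 CPM per kb (SD, n = 3 each). Zfp978 averaged 160.1 ± 68.9, 276 ± 2.57, 370.3 ± 80.3, 220.2 ± 12.7 and 106 ± 15.7 CPM per kb on the same days. Their means differed by less than the larger SD on day 1 and by more on the other days, with Zfp979 the lower of the pair on day 4 alone. Only 24.1% of the windows of Zfp978 are its own.

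Together the members took 0.208% and 0.220% of all counts in the PlaB libraries, against 0.550% and 0.429% in the control libraries. Blastoid libraries held 0.239% to 0.425% (day 1), 0.386% to 0.489% (day 2), 0.546% to 0.831% (day 3), 0.312% to 0.358% (day 4) and 0.197% to 0.266% (day 5). The share was thus highest on day 3, whose libraries did not overlap those of any other blastoid day.

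**Figure D1:**
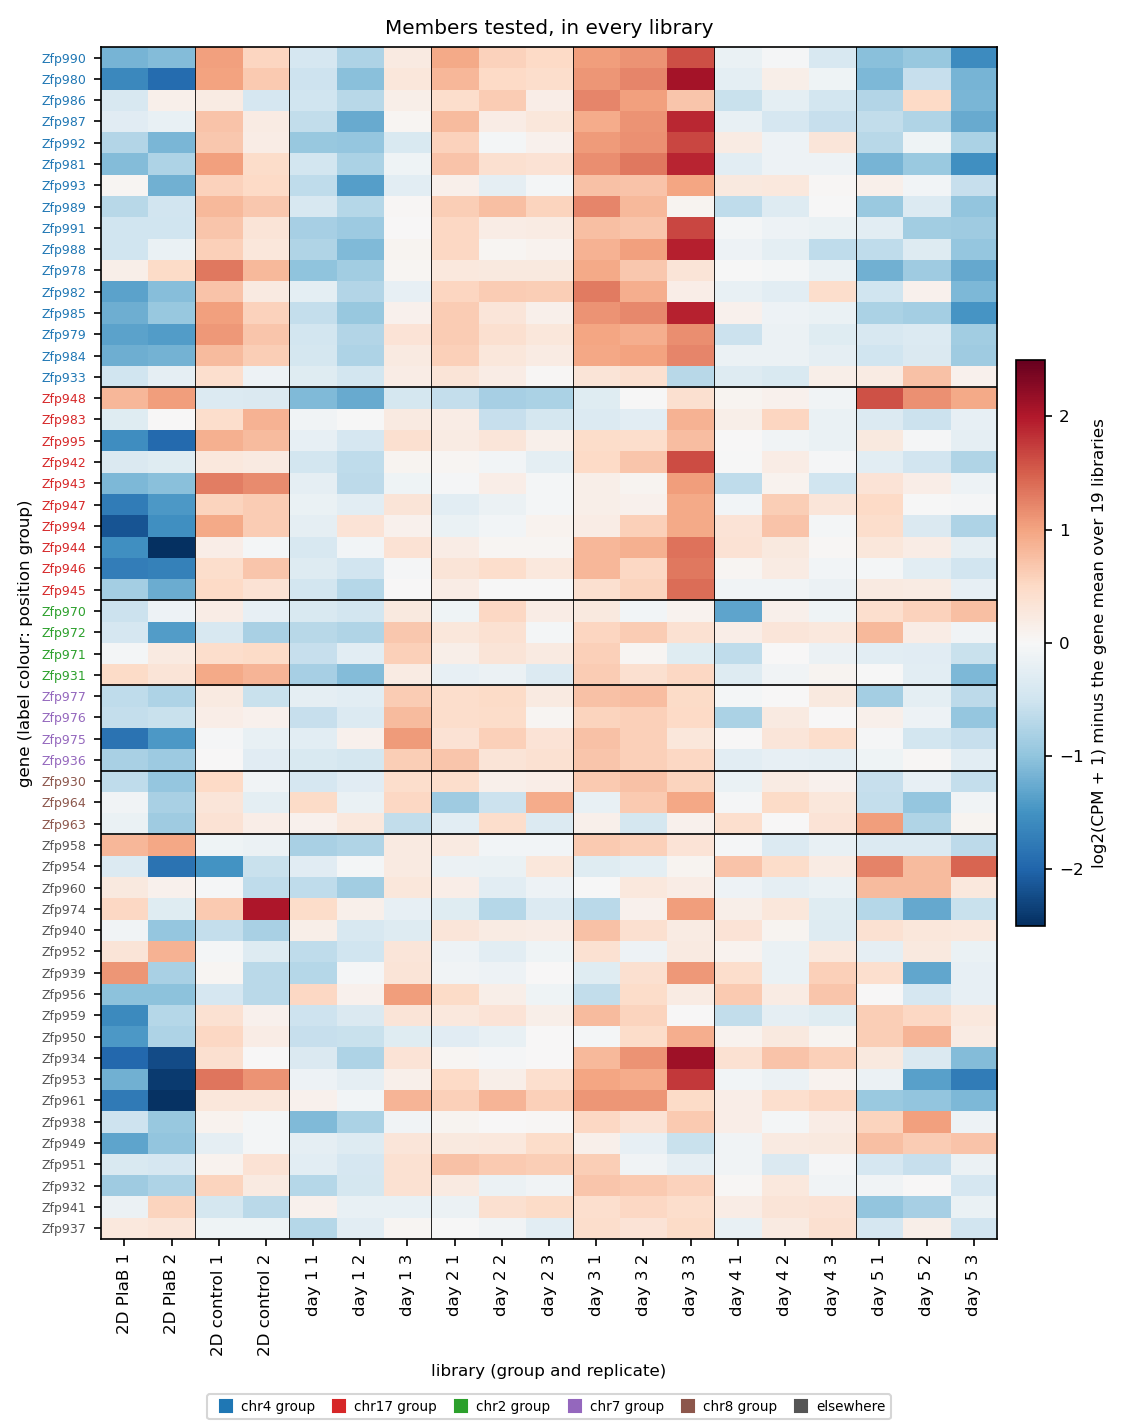
Each row is a member that passed the filter on low counts in the fit of all libraries (56 genes, ordered by position group, label colour) and each column 1 of the 19 libraries. Colour is log2(CPM + 1) minus the gene's mean over the libraries; most chromosome 4 rows are blue in both PlaB libraries (Zfp978 is an exception) and most are red on day 3, and Zfp948 is red with PlaB and on day 5.

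The 2D libraries held 2515381 to 4118725 counts each, and the blastoid libraries 3684787 to 7607021. Other properties moved with the groups. The GC tilt of a library, the median deviation of GC-rich genes (over 54%) minus that of GC-poor genes (under 42%) from each gene's mean log2 level, was 0.21 and 0.07 with PlaB and -1.0 and -0.83 in control. In blastoids it was 0.49 to 1.14 (day 1), 0.10 to 0.20 (day 2), -1.14 to -0.43 (day 3), 0.36 to 0.58 (day 4) and -0.60 to 0.22 (day 5). Of the members, 52 are under 42% GC. Each comparison was therefore also made with each library's trend over gene GC content removed. Counts of called members are given both ways, and values of single genes with the trend removed only for part of the genes named. Mitochondrial genes took 13.5% of counts in day 3 replicate 3, against 2.60% to 6.71% in the other blastoid libraries. The 16 feeder fibroblast markers had a median log2(CPM + 1) of 6.93 and 7.15 with PlaB, 6.37 and 6.75 in control, 3.18 to 3.75 on day 1 and 1.43 to 2.11 on day 5. None of the 16 was at 0 in the 2D libraries or on day 1, and 1 was at 0 in each day 5 library. In bulk RNA, fewer cells of a type and less RNA per cell cannot be told apart.

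**Figure D2:**
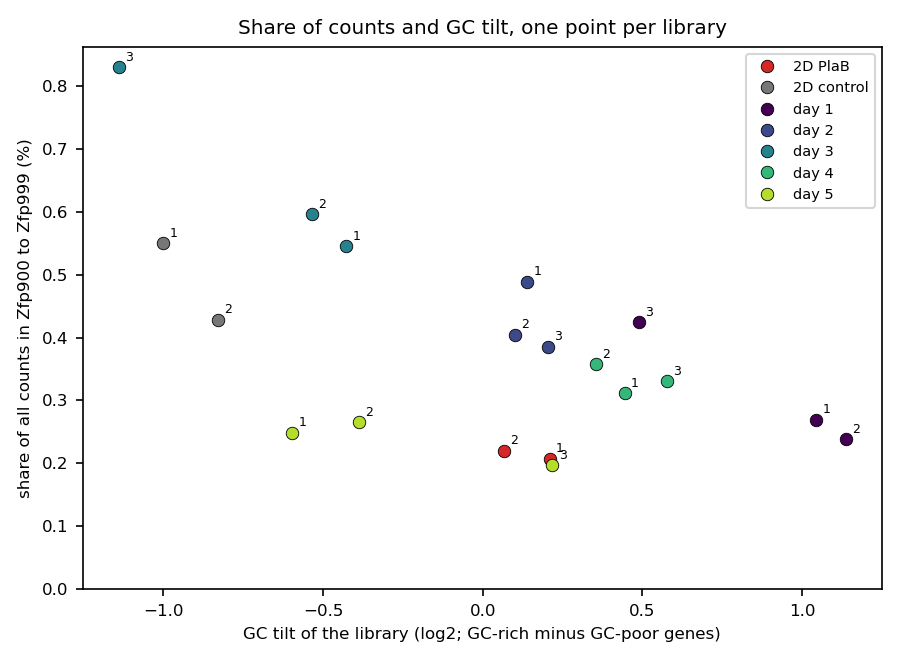
Each point is 1 library, with its GC tilt (log2) on the horizontal axis and the members' share of all counts (%) on the vertical axis; digits are replicate numbers. Day 3 replicate 3 has the lowest tilt (-1.14) and the highest share (0.831%), while the PlaB libraries and all day 5 libraries lie low, at shares of 0.266% or less, at tilts between -0.60 and 0.22. Day 1 replicate 2, at the highest tilt (1.14), lies low as well (0.239%), and day 1 replicate 1 (tilt 1.04) is at 0.269%.

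In 2D culture the comparison is of PlaB-treated with untreated stem cells, and it addresses how these genes respond when the spliceosome is inhibited. Most of those tested fell. Of the 64 members, 51 passed the filter on low counts, 36 of these fell and 2 rose (adjusted p under 0.05, edgeR quasi-likelihood test), where 25.8% of all 11183 tested genes fell and 25.9% rose. Their median log2 fold change was -1.15, against 0.00 over all tested genes and -0.37 over the 214 tested zinc finger genes numbered below Zfp900, of which 73 fell and 39 rose. With the GC trend removed, 26 members fell and 6 rose with a median of -0.71, where 25.6% of all genes fell and 21.3% rose with a median of -0.09.

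Zfp979, Zfp980, Zfp984 and Zfp990, all on chromosome 4, fell together. Zfp979 stood at 226 and 215 CPM in the PlaB libraries, against 1220.1 and 910.1 CPM in the control libraries. Its log2 fold change was -2.27 ± 0.14 (SE, adjusted p = 1.24e-15, edgeR), and -1.83 with the GC trend removed. All PlaB values lay far below both control values, and its share of the members' counts was 10.6% and 9.54% with PlaB and 22.2% and 21.5% in control. Zfp980 had 22.5 and 17.8 CPM with PlaB, against 144 and 111 CPM in control (log2 fold change -2.67 ± 0.20). Zfp984 had 57.7 and 58.4 CPM with PlaB, against 238 and 206 CPM in control (-1.93 ± 0.16). Zfp990 had 97.9 and 102 CPM with PlaB, against 451 and 316 CPM in control (-1.94 ± 0.16). The groups did not overlap for any of these genes. With 2 libraries a group this adds little to the calls, and the share of all genes without overlap was not counted. Zfp980, Zfp984 and Zfp990 each kept an adjusted p under 0.05 with the GC trend removed (edgeR), at log2 fold changes of -2.21, -1.47 and -1.48. Among the most abundant genes of the group, Zfp978 and Zfp988 fell less, at 340 ± 52.2 and 146 ± 22.5 CPM with PlaB and 579 ± 150.04 and 253 ± 41.2 CPM in control (SD, n = 2 each), log2 fold changes of -0.77 and -0.79. With the GC trend removed they were -0.31 (adjusted p = 0.0523, edgeR) and -0.35 (adjusted p = 0.0316, edgeR).

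Over the whole chromosome 4 group, 13 of 16 genes fell and none rose, with a median of -1.38, and 11 fell with the GC trend removed (median -0.91). Zfp986, Zfp933 and Zfp993 did not pass, at -0.05, -0.58 and -1.17. The chromosome 17 group had a lower median of -2.31: 8 of its 10 genes fell and 1 rose, and 7 fell with the GC trend removed (median -1.85). All 4 chromosome 7 genes fell, but 1 did with the GC trend removed. Of the chromosome 2 group 3 genes passed the filter and 1 fell, at a median of -0.38, and none fell with the GC trend removed. Among the 17 tested genes outside any group, 9 fell and 1 rose (median -0.77), and 6 fell and 5 rose with the GC trend removed (median -0.31). Over all tested genes 25.8% fell and 25.9% rose, and with the GC trend removed 25.6% fell and 21.3% rose.

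Beside Zfp980, the members with the largest falls were expressed at lower levels. Zfp953, on chromosome 13, had 3 counts over both PlaB libraries and 87 over both control libraries, a ratio of count shares of 0.0524 (exact 95% counting interval 0.0106 to 0.158, for counting error only). Zfp994, in the chromosome 17 group, stood at 1.64 and 2.96 CPM with PlaB, against 21.3 and 16.7 CPM in control (log2 fold change -3.01 ± 0.45, adjusted p = 6.69e-07, edgeR). Its neighbours Zfp995 (-2.72), Zfp947 (-2.62) and Zfp943 (-2.51) followed, then Zfp934 (-2.47) and Zfp961 (-2.44). These 7 genes were picked from the members that fell without overlap between groups, so the lack of overlap is no added result. Each fell with the GC trend removed as well.

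The 2 members that rose were Zfp948, at the edge of the chromosome 17 group, and Zfp958. Zfp948 had 127 and 146 CPM with PlaB, against 56.2 and 54.3 CPM in control (log2 fold change 1.31 ± 0.16, adjusted p = 2.13e-08, edgeR). Zfp958 had 239.99 and 258 CPM with PlaB, against 124 and 119.7 CPM in control (1.03 ± 0.14, adjusted p = 1.20e-07, edgeR). Both PlaB libraries lay above both control libraries in each gene. Lack of overlap was part of the rule for naming genes, so it is no added result. The log2 fold changes of Zfp948 and Zfp958 were 1.72 and 1.50 with the GC trend removed. Almost all windows of these genes are their own (99.9% and 99.4%).

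Other values moved with the treatment. Mitochondrial genes took 9.14% and 9.38% of counts with PlaB and 5.74% and 6.18% in control, and the library totals were 2515381 and 2765115 counts with PlaB and 4118725 and 3909958 in control, neither overlapping. In addition, 11 of the 16 feeder markers rose with PlaB and none fell (median log2 fold change 0.81), while of 10 pluripotency markers 2 rose and 4 fell (median -0.09). Across all 11113 genes with a known GC content, the log2 fold change was higher at higher GC content (Spearman's rho 0.43, a description across genes, which are not replicates), and it did so over the 51 members (0.41). Beyond the values with the GC trend removed, the part of these in the members' change was not tested.

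**Figure D3:**
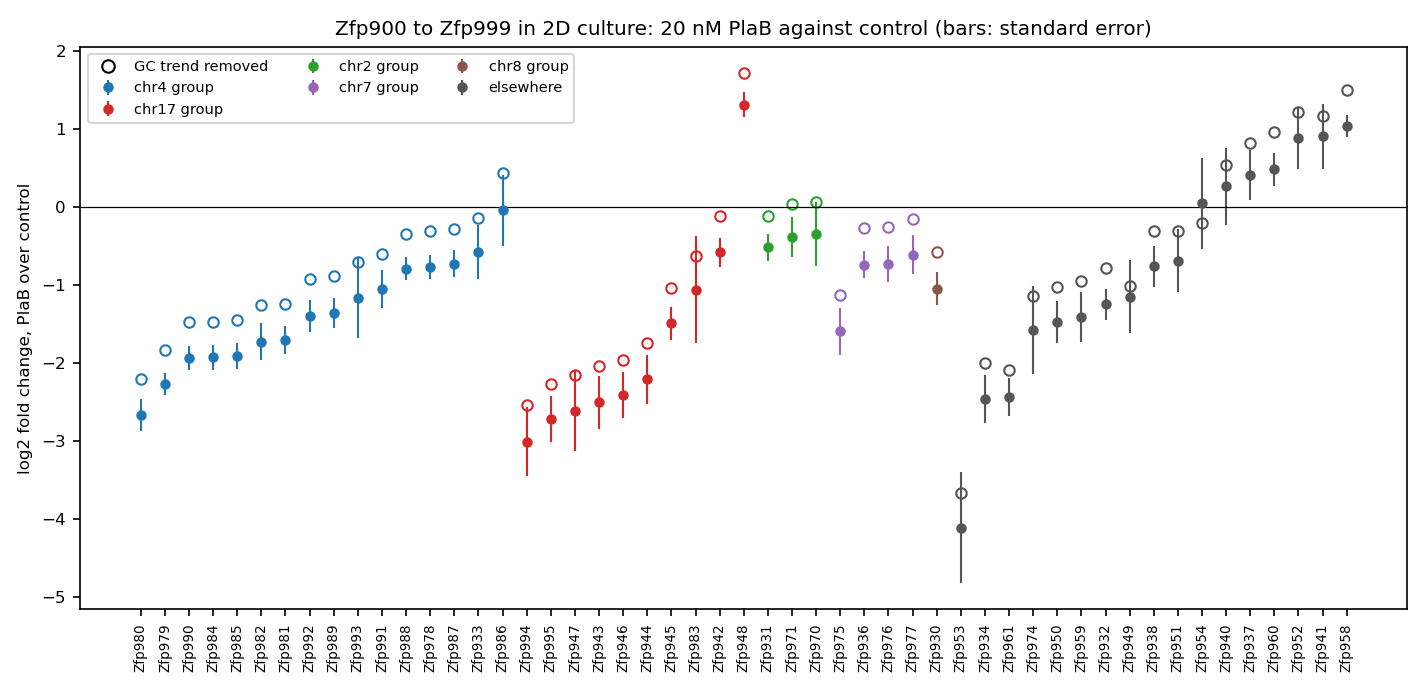
Log2 fold change of PlaB over control for the 51 members tested, grouped by position; filled points are the values with TMM scaling and their standard errors, open circles those with the GC trend removed. Most points lie below 0, the chromosome 17 group lowest as a group (median -2.31), and Zfp948 and Zfp958 lie above 0 at 1.31 and 1.03.

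The silencing list covers genes of KRAB zinc finger silencing and, beyond that, genes of histone and DNA methylation in stem cells. More of its genes fell than rose. All 32 genes of the list were tested, 17 fell and 5 rose, with a median of -0.47, where 25.8% of all genes fell and 25.9% rose. With the GC trend removed 13 fell and 4 rose (median -0.40), where 25.6% of all genes fell and 21.3% rose. Those with the smallest adjusted p among the falls were Mphosph8 (-1.70), which binds methylated histone H3 in the HUSH complex, Morc3 (-1.53), an ATPase of silent chromatin, Rif1 (-1.08), a regulator of replication timing, and Fam208a (-1.54), the HUSH subunit TASOR. Setdb1 had 19.1 ± 2.74 CPM with PlaB and 35.3 ± 2.96 CPM in control (SD, n = 2 each) and fell by 0.88 on the log2 scale (adjusted p = 0.00386, edgeR). The deacetylase gene Hdac1 rose by 1.01, the methyltransferase genes Suv39h2 by 0.92 and Ehmt2 by 2.15, and the DNA methyltransferase gene Dnmt1 by 0.65. Ehmt2 was low (13.9 ± 3.48 CPM with PlaB and 3.09 ± 0.0842 CPM in control), and neither it nor Dnmt1 passed with the GC trend removed (0.66 and -0.10). Trim28 had 149 ± 3.55 CPM with PlaB and 122 ± 1.15 CPM in control and did not pass (0.29 ± 0.15, adjusted p = 0.0904, edgeR), and with the GC trend removed it was -1.09 (adjusted p = 6.51e-09, edgeR), so its direction depends on that setting.

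In blastoids the question was how these genes moved over 5 days of culture. Most of those that differed among days were highest on day 3, and many were lowest on day 5. Of the 56 members that passed the filter, 37 differed among days (adjusted p under 0.05, edgeR F-test over all days), a share near the 68.0% of all 15121 tested genes. Of the 37, 29 had their highest group mean on day 3, 7 on day 5 and 1 on day 2. The lowest mean was that of day 5 in 20 genes, day 1 in 12, day 4 in 3 and day 3 in 2. Over all 10286 genes that differed, 23.6% were highest on day 3 and 29.5% lowest on day 5, against 78.4% and 54.1% of the 37 members. The peak day changed with the processing. With the GC trend removed, days were ranked by fitted steps summed from day 1 in place of CPM means. There, 14 of the 34 members that differed were highest on day 3 and 11 on day 2 (22.1% and 13.7% of all differing genes). In that setting 28 were lowest on day 5 (31.4% of all). In the chromosome 4 group 15 of 16 genes differed, as they did with the GC trend removed, where 34 of 56 members differed against 64.7% of all genes.

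Zfp979 stood at 431, 361 and 759 CPM on day 1, 944, 804 and 735 CPM on day 2, and 1225, 1131 and 1419 CPM on day 3. It stood at 425, 554 and 499.7 CPM on day 4 and 474, 510.0 and 336 CPM on day 5. The day 3 libraries lay above all others, and the highest day 1 library, replicate 3, reached into the day 2 range. The members with the smallest p over all days were Zfp981, Zfp948, Zfp990, Zfp985, Zfp992 and Zfp980. Zfp981 had 274, 302 and 467 CPM on day 3 and 54.3, 66.6 and 41.3 CPM on day 5, a ratio of group means of 6.43 between its highest and lowest day (adjusted p = 1.54e-07, edgeR). The ratio was 5.45 for Zfp990, 5.51 for Zfp985 and 5.57 for Zfp980, all highest on day 3 and lowest on day 5, and 4.37 for Zfp992, highest on day 3 and lowest on day 1. Zfp948 followed another course, with 34.2, 31.1 and 55.4 CPM on day 1 and 237, 178 and 149 CPM on day 5, a ratio of 4.67 (adjusted p = 9.47e-07, edgeR).

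**Figure D4:**
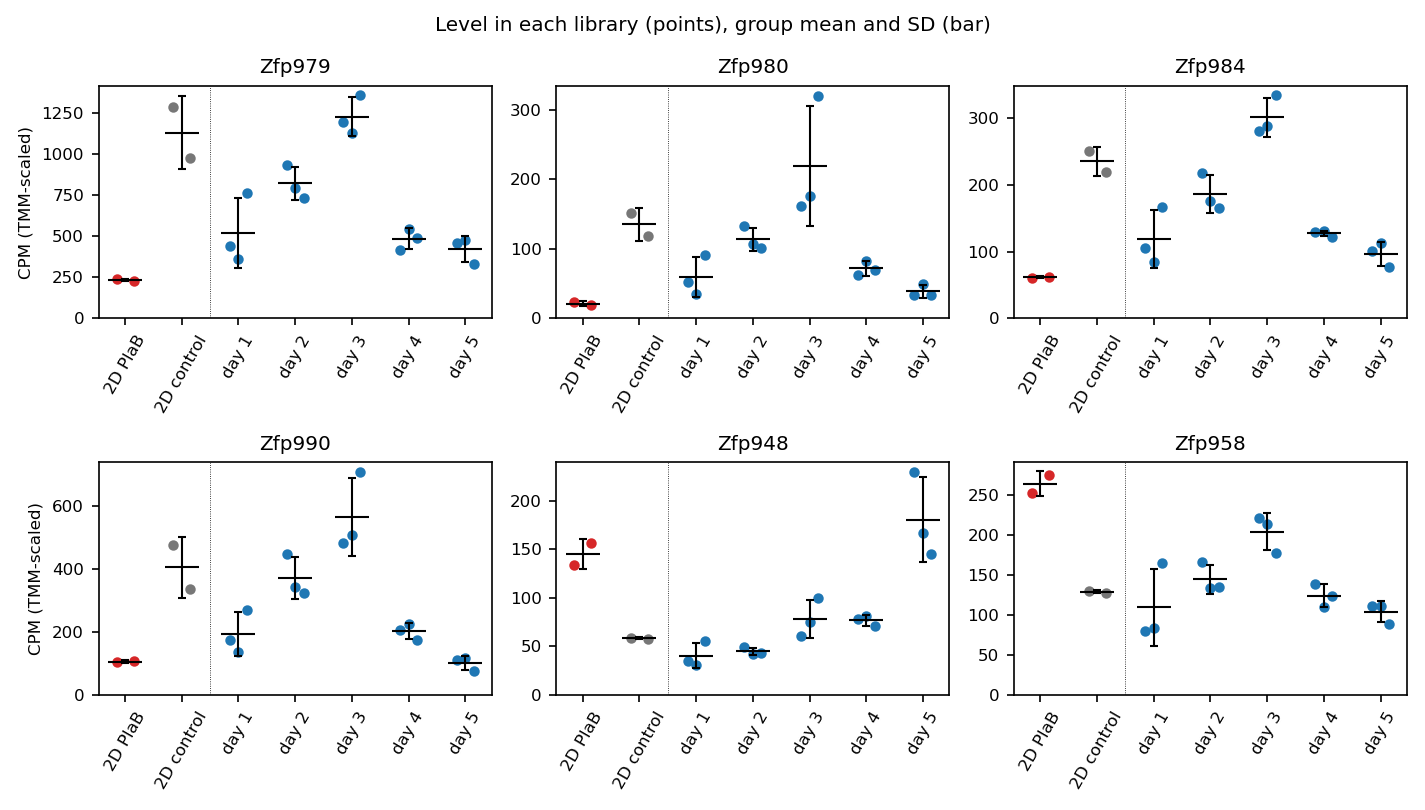
TMM-scaled CPM of 6 members in each of the 19 libraries (points), with the group mean and SD (bars), on linear axes from 0. Zfp979, Zfp980, Zfp984 and Zfp990 lie low with PlaB and peak on day 3, while Zfp948 lies highest on day 5 and Zfp958 highest with PlaB.

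Step by step, 4 members rose and none fell on day 2 against day 1, where 1.69% of all genes rose and 5.27% fell. All 4 (Zfp981, Zfp989, Zfp990 and Zfp992) are in the chromosome 4 group, whose 16 genes all had positive log2 fold changes, with a median of 0.84 against 0.26 over the 40 other members tested and 0.03 over all genes. Zfp992 averaged 87.9 ± 20.9 CPM on day 2 and 43.7 ± 10.8 CPM on day 1 (SD, n = 3 each; log2 fold change 1.00 ± 0.26, adjusted p = 0.0213, edgeR), Zfp989 differed by 1.00 and Zfp990 by 0.97. Removing the GC trend left 1 member that rose (Zfp981, 0.66) and none that fell, where 1.75% of all genes rose and 1.95% fell, at a chromosome 4 median of 0.62. The count rests on single libraries: it was 16 without day 1 replicate 3, 0 without day 1 replicate 1, day 1 replicate 2 or day 2 replicate 1, and 2 without day 2 replicate 2 or day 2 replicate 3.

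On day 3 against day 2, 16 members rose and none fell, where 12.0% of all genes rose and 13.5% fell. The chromosome 4 group held 9 of them and the chromosome 17 group 4. Zfp934 averaged 96.5 ± 50.9 CPM on day 3 and 33.8 ± 1.06 CPM on day 2 (log2 fold change 1.51 ± 0.35), Zfp988 519.7 ± 234 CPM on day 3 and 232 ± 45.6 CPM on day 2 (1.16 ± 0.31), and Zfp942 142 ± 67.1 CPM on day 3 and 64.1 ± 6.74 CPM on day 2 (1.14 ± 0.27, adjusted p = 0.00490, edgeR). The large SDs on day 3 go with replicate 3, the library with the lowest GC tilt and the highest mitochondrial share. After removal of the GC trend 1 member rose (Zfp934, 0.71) and 1 fell, where 10.1% of all genes rose and 10.4% fell. The members' median was then 0.01 in place of 0.60, and Zfp979 and Zfp990 turned from 0.60 and 0.63 to -0.16 and -0.13, none of these 4 values passing. Only 6 members rose without day 3 replicate 3, and likewise 6 without day 2 replicate 2 or day 2 replicate 3.

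On day 4 against day 3 the members fell: 26 of 56 did and none rose, where 12.3% of all genes fell and 15.6% rose. The chromosome 4 group held 14 of the 26, from 16 tested, with a median of -1.31 against -0.43 over the other members. Zfp987 averaged 77.1 ± 10.7 CPM on day 4 and 265 ± 104 CPM on day 3 (SD, n = 3 each; log2 fold change -1.78 ± 0.31, adjusted p = 0.000363, edgeR). Only 6.88% of the windows of Zfp987 and 27.3% of those of Zfp988 are their own. Zfp988 fell by 1.71 on the log2 scale and Zfp981 by 1.69, and Zfp979 averaged 493 ± 65.1 CPM on day 4 and 1258 ± 147 CPM on day 3 (-1.35 ± 0.26). Without the GC trend 6 members fell and none rose, where 8.70% of all genes fell and 9.87% rose, and all 6 are in the chromosome 4 group. They include Zfp981 (-0.77), Zfp987 (-0.78), Zfp980 (-0.72) and Zfp990 (-0.61), while Zfp979 was at -0.46 and did not pass. Across genes, Spearman's rho of the fold change with GC content was 0.55 over 15016 genes and 0.76 over the 56 members. Feeder markers fell in the same step (13 of 16, median -2.11) and 5 of the 7 tested trophectoderm markers rose; their part was not tested.

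On day 5 against day 4, 5 members rose and 7 fell, where 14.1% of all genes rose and 14.5% fell. Zfp948 rose, at 188 ± 45.0 CPM on day 5 and 78.1 ± 5.39 CPM on day 4 (SD, n = 3 each; log2 fold change 1.27 ± 0.24, adjusted p = 0.000755, edgeR), as did Zfp970 (1.01) and Zfp959 (0.91), neither of which passed with the GC trend removed. The count of rises was 2 with total counts only and 2 to 4 when 1 library of either day was left out. Zfp970 lost its call with total counts only and when any library of these days other than day 4 replicate 2 was left out. Zfp961 averaged 33.5 ± 2.82 CPM on day 5 and 87.3 ± 10.8 CPM on day 4 (-1.38 ± 0.24), and Zfp978 fell by 1.02 and Zfp981 by 1.00 on the log2 scale. Removing the GC trend gave 22 members that fell, 10 of them in the chromosome 4 group, and 2 that rose, where 13.0% of all genes fell and 14.2% rose, at a members' median of -0.68 in place of -0.29.

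Across the whole course, day 5 against day 1, 8 members rose and 5 fell, where 25.5% of all genes moved in each direction, so a smaller share of the members than of all genes was called in either direction. Their median was -0.05, against -0.02 over all genes and -0.12 over the 262 tested zinc finger genes numbered below Zfp900, of which 49 rose and 68 fell. Zfp948 averaged 188 ± 45.0 CPM on day 5 and 40.2 ± 13.2 CPM on day 1 (SD, n = 3 each), a log2 fold change of 2.22 ± 0.25 (adjusted p = 8.82e-07, edgeR). Zfp954 had 28.8, 21.5 and 33.2 CPM on day 5, against 8.87, 10.8 and 13.3 CPM on day 1 (1.34 ± 0.26). The other members that rose and did not overlap were Zfp950 (1.15), Zfp960 (1.02), Zfp949 (0.87) and Zfp970 (0.87). Zfp949 and Zfp970 lost the call when libraries were scaled by total counts, low counts were kept or day 1 replicate 1 was left out. Zfp970 lost it also with the GC trend removed and without day 1 replicate 2, day 5 replicate 2 or day 5 replicate 3.

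Among the members that fell on day 5 against day 1 without overlap between the days, Zfp961 fell most. It had 35.2, 35.1 and 30.3 CPM on day 5, against 70.4, 63.0 and 119.9 CPM on day 1 (log2 fold change -1.34 ± 0.24, adjusted p = 0.000149, edgeR). Zfp990 had 115, 127 and 78.4 CPM on day 5, against 171, 135 and 269 CPM on day 1 (-0.85 ± 0.26, adjusted p = 0.0110, edgeR), and Zfp981 fell by 0.71 on the log2 scale. Neither passed without day 1 replicate 3 or without day 5 replicate 3 (Zfp990 -0.58 and -0.67, Zfp981 -0.57 and -0.55), nor did Zfp981 without day 5 replicate 1 (-0.71). Zfp979 (-0.23 ± 0.26), Zfp984 (-0.23 ± 0.24) and Zfp980 (-0.56 ± 0.31) did not pass, and their libraries overlapped between the days. Without the GC trend these 3 genes passed at -0.79, -0.74 and -1.05, and 23 members fell and 6 rose, where 22.5% of all genes fell and 26.4% rose. The GC tilt was 0.49 to 1.14 on day 1 and -0.60 to 0.22 on day 5. Scaling by total counts gave 15 members that fell and 5 that rose, where 34.0% of all genes fell and 17.3% rose, and moved the median of all genes by -0.34 to -0.35.

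**Figure D5:**
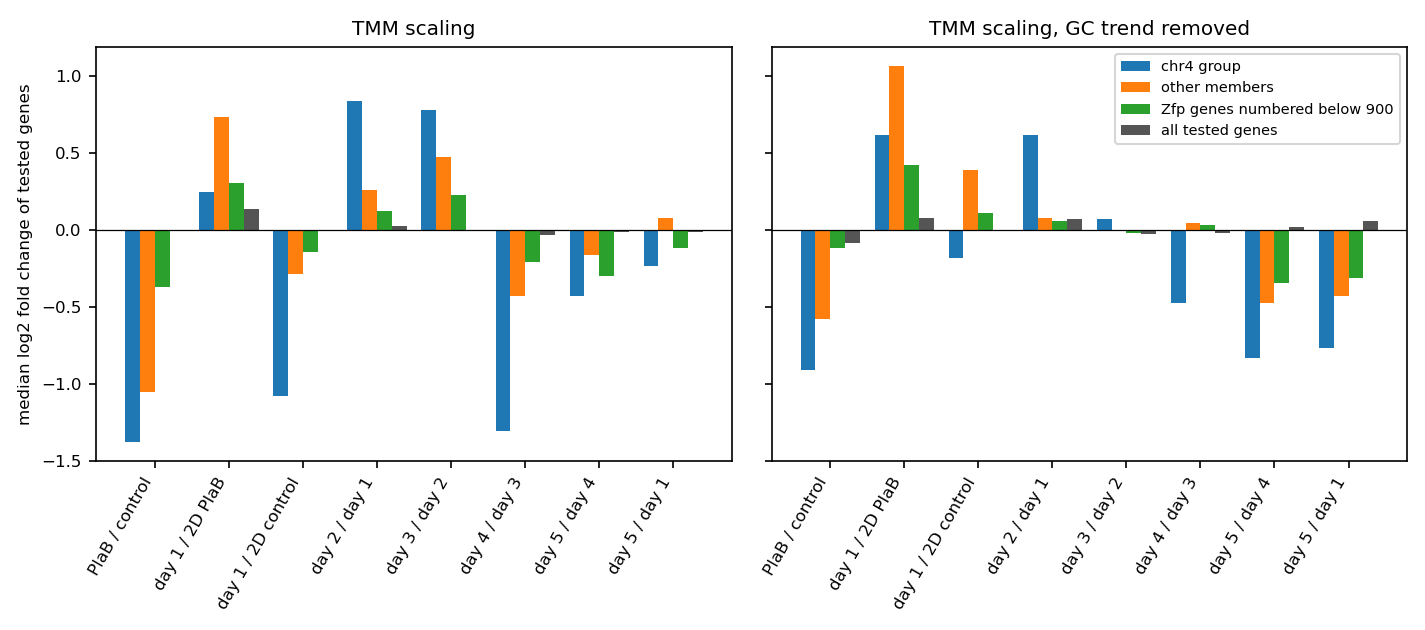
Median log2 fold change over tested genes in each comparison (first named over second) for the chromosome 4 group, the other members, the zinc finger genes numbered below Zfp900 and all tested genes, with TMM scaling (left) and with the GC trend removed (right). The chromosome 4 median on day 3 against day 2 is 0.78 on the left and 0.07 on the right, while with PlaB it is -1.38 and -0.91.

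Among the 32 silencing genes on day 5 against day 1, 5 rose and 6 fell (median 0.03), where 25.5% of all genes moved in each direction. After removal of the GC trend 6 rose and 5 fell, where 26.4% of all genes rose and 22.5% fell. Setdb1 averaged 64.2 ± 1.74 CPM on day 5 and 39.4 ± 1.88 CPM on day 1 (SD, n = 3 each; log2 fold change 0.70 ± 0.19, adjusted p = 0.00402, edgeR), and 0.68 with the GC trend removed. Zfp57, a KRAB zinc finger gene known for keeping methylation at imprinted genes, averaged 7.34 ± 2.37 CPM on day 5 and 80.7 ± 13.1 CPM on day 1, and fell by 3.47. Hdac1 fell by 0.97, Ehmt2 by 1.36 and Dnmt3b by 0.70, the last pair at -0.13 and -0.21 with the GC trend removed, and Mphosph8 (0.60), Atf7ip2 (0.82) and Suv39h1 (0.77) rose. Trim28 averaged 219 ± 84.5 CPM on day 5 and 342 ± 19.9 CPM on day 1 and did not pass (-0.64 ± 0.30, adjusted p = 0.0755, edgeR; 0.46 with the GC trend removed).

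Blastoids on day 1 were set against 2D cells in 1 fit of all libraries, within which CPM were scaled anew. The cultures differ in format and in feeder RNA as well as in treatment. Against PlaB-treated 2D cells, 19 of 56 members rose and 5 fell, where 21.9% of all genes rose and 17.0% fell. The members' median was 0.67 against 0.14 over all genes, and with the GC trend removed 27 rose and 2 fell (median 1.01 against 0.07), where 20.3% of all genes rose and 17.9% fell. Zfp979 averaged 519 ± 213 CPM on day 1 (n = 3) and 234 ± 6.62 CPM with PlaB (n = 2), a log2 fold change of 1.15 ± 0.28 (adjusted p = 0.00227, edgeR). Zfp980 rose by 1.49, Zfp984 by 0.95 and Zfp990 by 0.86 on the log2 scale. The largest rises were in Zfp956, Zfp953, Zfp961 (2.52 ± 0.31) and Zfp994 (2.25 ± 0.49). Zfp956 had 43 counts over 3 day 1 libraries and 0 over the PlaB libraries. That is at least 3.42-fold higher by the exact 95% counting limit, and 4.39-fold against a floor of 3 counts over the group. Zfp953 had 79 and 3 counts (ratio 8.06, interval 2.66 to 39.9). The ratios of these 2 genes use total counts without TMM scaling, unlike the log2 fold changes beside them. In this comparison total counts moved the median log2 fold change of all genes by 0.29. The falls were led by Zfp948, at 40.4 ± 13.2 CPM on day 1 and 145 ± 15.3 CPM with PlaB (-1.84 ± 0.25, adjusted p = 3.89e-06, edgeR), and Zfp958 (-1.27). Zfp952 (-0.92), Zfp931 (-0.86) and Zfp978 (-0.85) fell as well but did not pass with the GC trend removed.

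Against untreated 2D cells, day 1 blastoids had 2 members that rose and 22 that fell, where 22.7% of all genes rose and 19.1% fell. The median was -0.55 against 0.00 over all genes, and 14 of the 16 chromosome 4 genes fell. Zfp979 averaged 519 ± 213 CPM on day 1 (n = 3) and 1128 ± 220 CPM in control cells (n = 2; log2 fold change -1.12 ± 0.27, adjusted p = 0.00144, edgeR), Zfp978 fell by 1.61 and Zfp943 by 1.62. Zfp974 (-1.59) and Zfp953 (-1.49) fell as well, and Zfp954 (1.06) and Zfp956 rose. Zfp956 had 43 and 3 counts (ratio 6.67, interval 2.14 to 33.6, again from total counts without TMM scaling). Neither rise held with the GC trend removed, without control replicate 1 or without day 1 replicate 3, and 10 members fell without control replicate 1. After removal of the GC trend 2 members fell (Zfp943 and Zfp978, -0.78 and -0.90) and 7 rose, where 15.4% of all genes fell and 16.4% rose, at a median of 0.20, and Zfp979, Zfp980, Zfp984 and Zfp990 were at -0.19, -0.32, -0.13 and -0.18, none passing. The GC tilt was 0.49 to 1.14 on day 1 and -1.0 and -0.83 in control. These comparisons share the day 1 libraries. Feeder markers fell in 14 of 16 against PlaB-treated cells and in 10 of 16 against untreated cells, and their part was not tested.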

How the data were processed

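The authors deposited raw read counts by gene symbol, 1 table holding the 2D libraries and 1 the blastoid libraries. STAR 2.7.10b (alignment to mm10) and HTSeq 0.13.5 (counting) are named in the submitters' processing notes. Neither annotation release nor strand setting is given in the sources used here. Libraries were made with Smart-seq2 from polyadenylated RNA, per the labels' protocols, without molecular identifiers, so intervals and floors cover counting error only. Ratios of count shares use total counts without TMM scaling. Columns were matched to samples by title, since the file names in the labels' descriptions are swapped.

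The 4 libraries of 2D culture, the 15 of blastoids and all 19 were each fitted whole. Genes were kept by filterByExpr (minimum count 10, minimum total 15) and tested with edgeR 4.0.16 (R 4.3.3), using TMM scaling, robust dispersions and the quasi-likelihood F-test, with Benjamini-Hochberg adjustment over all tested genes and a threshold of 0.05. A member can pass the filter through the group in which it is high, so counts over tested members are not counts over all 64. SE is the size of the log2 fold change divided by the root of F. CPM are TMM-scaled within each fit. The fits were also run on simulated counts with a common dispersion for all genes and no GC trend. Such counts cannot show how the fits handle the GC trends of these libraries.

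Coordinates, transcript length, GC content, 50-base windows and coding sequences came from GENCODE M21 (GRCm38); 53663 of 54352 symbols matched exactly, 112 matched several genes and 577 none. The GC trend of each library was a lowess curve (span 0.3) given to edgeR as an offset. Other alternatives were RLE factors, total counts only, no filter, DESeq2 1.42.0, a replicate block, thinning to the smallest library (2D only), members with at least 50% own windows and leaving out each library. Promoters came from RefSeq and were aligned with Biopython.

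The members and lists were chosen with earlier results of these data known. Named are Zfp979, Zfp980, Zfp984 and Zfp990, the called members with the largest fold changes whose groups do not overlap (up to 8 per direction in 2D and over the whole blastoid course, 4 between blastoids and 2D, 3 for each step), the 5 highest per kb, the 6 with the smallest p over days, and of the silencing genes the 4 smallest adjusted p per direction with Trim28 and Setdb1. Other genes named were chosen after their values were seen.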

Additional observations from a re-analysis of the deposited data

How the results depend on the processing

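Removing each library's GC trend changed most counts. With it, 6 members rose with PlaB, 23 fell on day 5 against day 1, and 1 rose on day 2 against day 1. On day 3 against day 2, 1 rose and 1 fell, 6 fell on day 4 against day 3, and 2 rose and 22 fell on day 5 against day 4. On day 1, 2 fell against PlaB, and 7 rose and 2 fell against control. The value reversed for Zfp979 (-0.16) and Zfp990 (-0.13) on day 3 against day 2, for Dnmt1 (-0.10) and Trim28 (-1.09) with PlaB, and for Trim28 on day 5 against day 1 (0.46). Total counts only gave 5 rises and 15 falls on day 5 against day 1, 1 rise on day 4 against day 3, 2 rises and 13 falls on day 5 against day 4, 2 falls on day 1 against PlaB and 4 rises on day 1 against control. That scaling moved the median of all genes by -0.34 on day 5 against day 1, by -0.21 on day 5 against day 4, by -0.19 on day 2 against day 1, by 0.14 on day 4 against day 3, and on day 1 by 0.29 against PlaB and 0.24 against control. No filter gave 5 rises and 10 falls on day 5 against day 1, 7 rises on day 2 against day 1, 1 rise and 12 falls on day 5 against day 4, and 1 rise on day 1 against control. DESeq2 gave 7 rises on day 2 against day 1 and 1 rise on day 1 against control. Among members with at least 50% own windows, 10 rose on day 3 against day 2, 3 rose on day 5 against day 4 and 14 fell on day 1 against control, fewer genes being counted. Over all genes, 12.0% rose, 14.1% rose and 19.1% fell in these comparisons. No share over all genes stands beside the counts with no filter, with DESeq2, with a replicate block or with a library left out. Those counts show only how far the number of called members moved. The causes of the other shifts were not tested.

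Replicate numbers were not used as pairs, since the labels do not state a pairing. In blastoids, deviations of same-numbered libraries correlated between -0.26 and 0.18, and those of unlike-numbered libraries between -0.18 and 0.23. In 2D the values were -0.02 and 0.02. With 2 libraries a group the deviations mirror each other, so these values cannot settle whether samples were paired. A replicate block gave 3 falls on day 5 against day 1, 2 rises on day 2 against day 1 and 0 rises on day 1 against control, and moved no other count of members by over 1.5 times.

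Leaving out 1 library at a time gave 2 to 4 rises and 30 to 36 falls with PlaB (4 rises without PlaB replicate 1), where the lone library left in a group was assumed to vary like the others. It gave 36 to 43 members that differed over days, and 5 to 11 rises and 2 to 8 falls on day 5 against day 1 (5 rises without day 1 replicate 1, 8 falls without day 1 replicate 2, 2 falls without day 1 replicate 3 or day 5 replicate 3). It gave 0 to 16 rises and 0 falls on day 2 against day 1, 6 to 16 rises and 0 to 1 falls (1 without day 3 replicate 1) on day 3 against day 2, and 0 to 1 rises (1 without day 3 replicate 3) and 19 to 24 falls on day 4 against day 3. On day 5 against day 4 it gave 2 to 4 rises (2 without day 4 replicate 3 or day 5 replicate 1, 3 without day 4 replicates 1 or 2 or day 5 replicate 2) and 4 to 8 falls (4 without day 5 replicate 3). Against PlaB, day 1 had 13 to 23 rises and 2 to 7 falls (3 without PlaB replicate 1, 2 without PlaB replicate 2, day 1 replicate 1 or day 1 replicate 2). Against control, it had 0 to 2 rises (0 without control replicate 1 or day 1 replicate 3, 1 without control replicate 2 or day 1 replicate 2) and 10 to 27 falls (10 without control replicate 1). On day 5 against day 1, Zfp979 ranged from -0.49 to 0.0933 and Zfp984 from -0.48 to 0.0469, the sign changing without day 1 replicate 3. Depth limits members with few counts, and 8 of 64 did not pass the filter on low counts in any fit.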
